A study of Mus musculus with 6 samples.

Results

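Genes of the CC and CXC chemokine ligand families were taken by symbol: Ccl2, Ccl3, Ccl4, Ccl5, Ccl6, Ccl7, Ccl9, Cxcl2, Cxcl10 and Cxcl16. Of these 10, 8 had a row in the deposited table of 11644 genes, and Cxcl2 and Cxcl16 were not analysed here. Transcripts were measured by sequencing of polyadenylated RNA in MLL-ENL/NrasG12D cells, cultured mouse leukemia cells in which MLL is fused to ENL and Nras carries an activating mutation. Both groups were this same cell type: 3 libraries came from cells given DMSO alone and 3 from cells given 5 µM EPZ015666, a small-molecule inhibitor of the arginine methyltransferase PRMT5, for 72 h with a second treatment on day 2. No other line or clone was compared, and the series text calls the 3 libraries of a group independent without saying what was repeated, so the p-values measure the spread between these libraries, which may be technical.

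Chemokines are small secreted proteins that attract leukocytes by binding G protein-coupled receptors on their surface. CC ligands carry a pair of adjacent cysteines near the amino end and mostly attract monocytes, macrophages and lymphocytes, whereas in CXC ligands 1 residue separates these cysteines. In myeloid cells many of their genes are induced by NF-kB after inflammatory signals, and Cxcl10 also by interferons. The genes sit in clusters: in the mm10 assembly (GENCODE annotation), Ccl2 (82035571 to 82037453, plus strand) and Ccl7 (82045712 to 82047525, plus strand) lie together on chromosome 11. Further along that chromosome lie Ccl5 (83525778 to 83530518, minus strand), Ccl9 (83572919 to 83578636, minus), Ccl6 (83587882 to 83593087, minus), Ccl3 (83647844 to 83649355, minus) and Ccl4 (83662584 to 83664683, plus). Cxcl10 (92346638 to 92348889, minus strand) is on chromosome 5.

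Upstream sequences were looked at because 7 of these genes moved in the same direction. RefSeq's table for GRCm38.p6, the assembly also called mm10, held a promoter for 4 of the 8 measured ligands. Shown are the 250 bases before the start of Ccl6 and Ccl3, the called ligands with the largest and the smallest log2 change among those 4, and of Ccl9 and Cxcl10, which were added after their values had been seen. Each reads 5′ to 3′ on the gene's strand. Capitals mark matches, on either strand, to 2 kappa B motifs bound by NF-kB (GGG, 2 free bases and TTTCC for the stricter; GGG, 3 free bases and TTCC for the looser, which contains it), the interferon response motif (GAAA, 2 free bases, GAAA), the AP-1 motif TGANTCA and the TATA motif TATAAA.
Cxcl10 chr5:92348890-92349139, minus strand: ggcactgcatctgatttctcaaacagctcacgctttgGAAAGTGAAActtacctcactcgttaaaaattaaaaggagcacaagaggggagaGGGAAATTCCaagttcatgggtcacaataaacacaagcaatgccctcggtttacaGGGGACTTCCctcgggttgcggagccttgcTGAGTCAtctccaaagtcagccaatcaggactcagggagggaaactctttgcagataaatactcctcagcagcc
Ccl9 chr11:83578637-83578886, minus strand: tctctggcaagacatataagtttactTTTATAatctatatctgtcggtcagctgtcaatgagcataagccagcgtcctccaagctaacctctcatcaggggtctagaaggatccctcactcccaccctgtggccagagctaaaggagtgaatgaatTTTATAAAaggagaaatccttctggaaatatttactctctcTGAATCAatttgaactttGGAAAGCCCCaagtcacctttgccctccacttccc
Ccl6 chr11:83593088-83593337, minus strand: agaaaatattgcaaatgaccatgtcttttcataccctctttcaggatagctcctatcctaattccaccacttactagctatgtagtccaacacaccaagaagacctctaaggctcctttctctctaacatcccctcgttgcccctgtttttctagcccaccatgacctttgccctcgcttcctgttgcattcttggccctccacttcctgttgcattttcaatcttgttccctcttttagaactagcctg
Ccl3 chr11:83649379-83649628, minus strand: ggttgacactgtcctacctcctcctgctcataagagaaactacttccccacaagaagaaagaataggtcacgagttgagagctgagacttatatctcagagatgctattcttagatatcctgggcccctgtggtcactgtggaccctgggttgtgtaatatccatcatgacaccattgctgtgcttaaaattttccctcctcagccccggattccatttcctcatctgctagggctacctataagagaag
Cxcl10 held 2 matches to the looser kappa B motif, at bases -159 to -150 and -104 to -95 from the start. It also held an interferon response match at -213 to -204 and an AP-1 match at -74 to -68. Ccl9 held a kappa B match of both kinds on the opposite strand at -35 to -26, an AP-1 match at -53 to -47 and 3 TATA matches. Of these TATA matches, those at -94 to -89 and -92 to -87 overlap on opposite strands, and the other lies at -224 to -219. Ccl6 and Ccl3 held none of these letters in the window, which extended 50 bases past the start for the search. Over 32851 mouse promoters of the same length, the stricter kappa B motif occurred in 1.63%, the looser in 5.56%, the interferon response motif in 3.44%, TGANTCA in 7.81% and TATAAA in 13.6%. A loose form of the C/EBP site (TT, 1 free base, C, 2 free bases, AA), not shown in capitals, occurred in 40.7% of promoters and in those of Cxcl10, Ccl9 and Ccl3. Binding of any factor was not measured.

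The libraries held 11335948 to 19197912 reads assigned to genes. Values are normalized counts, reads per gene divided by a size factor for the library, and every row of the table had at least 10 reads in its highest library. DMSO library 2 stood apart from the other DMSO libraries on the second principal component (score 29.2 against -13.5 and -12.3; 8.97% of the variance), and the calls and places of ligands that change without it are given both ways. The compound acts on the PRMT5 enzyme, so no transcript level checks the inhibition. Of 10 markers of the labelled myeloid cells all 10 were measured, and Ptprc, the leukocyte surface phosphatase CD45, stood at 6653 to 7377 in DMSO and 6624 to 7126 with the inhibitor.

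With the inhibitor, 7 of the 8 measured ligands were higher, none was lower and Cxcl10 missed the threshold (adjusted p under 0.05, limma). Over all genes 46.5% were called, 23.6% higher and 22.9% lower. By edgeR 7 ligands were called higher, against 22.3% of all genes, by DESeq2 6, against 21.9%, with the replicate number as a block 7, against 25.9%, and with at least 5 CPM in 3 libraries 5, against 23.6% of the genes left. With DMSO library 1, 2 or 3 left out 7, 8 and 7 ligands were called higher, against 20.1%, 23.6% and 19.5% of all genes, and with inhibitor library 1, 2 or 3 left out 7, 6 and 7, against 22.6%, 17.8% and 21.4%. In all 7 the lowest inhibitor library lay above the highest DMSO library, which held for 28.2% of all genes. A call together with a rise of at least 2-fold was made for 6 of the ligands and for 7.16% of all genes. The median log2 fold change of the 8 ligands was 1.88, against 0.00 over all genes. One of the 7, Ccl7, had at most 5 reads in a DMSO library and so entered the table only through its inhibitor libraries, while the other 7 measured ligands each reached at least 12 reads in a DMSO library. In bulk RNA, more cells that make a transcript and more transcript in each cell cannot be told apart.

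**Figure D1:**
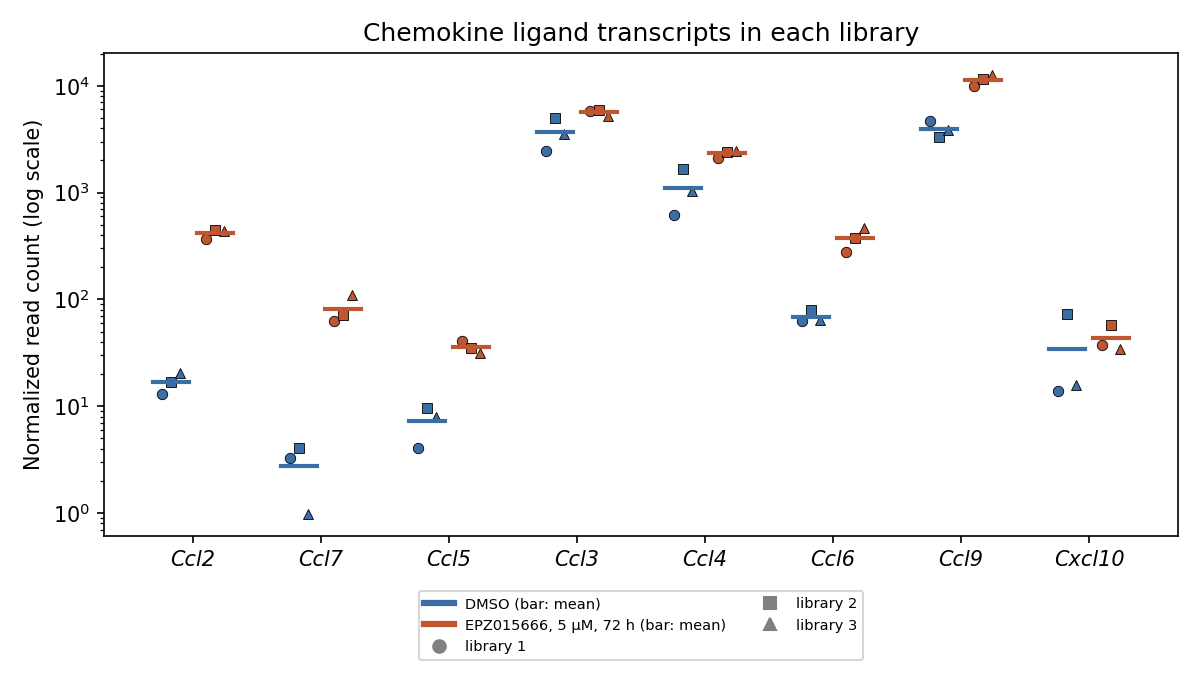
Normalized read counts (vertical axis, log scale) of the 8 measured ligands in each of 3 DMSO (blue) and 3 inhibitor (orange) libraries; symbols give the library number and bars the group means. The inhibitor libraries lie above all DMSO libraries for every ligand shown but Cxcl10, for which DMSO library 2, at 73.5, is the highest of the 6.

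Ccl2 and Ccl7 encode the monocyte attractants MCP-1 and MCP-3, which act mainly through the receptor Ccr2. Ccl2 stood at 13.0, 16.95 and 20.6 normalized counts in DMSO libraries 1 to 3 and at 367, 443 and 440.1 in inhibitor libraries 1 to 3. All inhibitor libraries were far above all DMSO libraries, and even the nearest pair differed 17.8-fold. The group means were 16.9 ± 3.79 and 417 ± 43.3 (± SD over 3 libraries), a log2 fold change of 4.56 ± 0.19 (SE; limma's adjusted p = 2.10e-08) that ranked 13 among 11644 genes. Ccl7 rose from 3.26, 4.04 and 0.982 to 63.3, 71.3 and 109.8, and its log2 fold change of 4.52 ± 0.40 (limma's adjusted p = 5.18e-06) ranked 14. The DMSO values of Ccl7 rest on 4, 5 and 1 reads, against 62, 51 and 102 with the inhibitor. The ratio of its pooled reads per depth was 28.6, with a 95% exact interval of 15.2 to 60.4 that covers counting error only. Per kilobase of exon, Ccl2 exceeded Ccl7 in each library, by 2.82- to 14.8-fold in DMSO and 2.82- to 4.38-fold with the inhibitor. The highest ratio, in DMSO library 3, divides by the 1 read of Ccl7, and the ranges of both groups overlapped.

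Ccl3 and Ccl4 encode the macrophage inflammatory proteins MIP-1 alpha and MIP-1 beta, and Ccl5 encodes RANTES; Ccl3 and Ccl5 bind Ccr1, among other receptors. Ccl3 was already abundant in DMSO, at 2444, 4966 and 3569 normalized counts, and stood at 5787, 5963 and 5225 with the inhibitor. The groups did not overlap, but DMSO library 2 came within 1.05-fold of the lowest inhibitor library. The rise was 1.55-fold, from 3659.8 ± 1263 to 5658 ± 385 (± SD over 3 libraries; log2 change 0.69 ± 0.19 SE; limma's adjusted p = 0.0115). It was 0.94 on the log2 scale without DMSO library 2 (limma's adjusted p = 5.66e-05) and 0.42 without DMSO library 1 (0.0279). The call was lost without inhibitor library 2 (limma's adjusted p = 0.0559) and by DESeq2 (adjusted p = 0.0694).

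Ccl4 showed the same order of DMSO libraries, at 621, 1648 and 1039, and stood at 2124, 2389.8 and 2469 with the inhibitor. All inhibitor libraries were above all DMSO libraries, and the means, 1103 ± 517 and 2327 ± 181, differed 2.11-fold (± SD over 3 libraries; log2 change 1.19 ± 0.25 SE; limma's adjusted p = 0.00236). Without DMSO library 2 the log2 fold change of Ccl4 was 1.53 and without DMSO library 1 it was 0.83, both past the threshold. Per kilobase, Ccl4 stood at 0.295, 0.385 and 0.338 of Ccl3 in the DMSO libraries and at 0.426, 0.465 and 0.548 in the inhibitor libraries. These ratios did not overlap, and the exact permutation p of 0.1 is the smallest that 3 against 3 can give (0.200 after Benjamini-Hochberg adjustment over 4 such ratios). Ccl5 was scarce, with 4.08, 9.69 and 7.85 in DMSO and 40.9, 35.0 and 31.2 with the inhibitor. It rose 4.95-fold (log2 fold change 2.22 ± 0.35 SE, limma's adjusted p = 3.33e-04), resting on 25 reads over the DMSO libraries and 94 over the inhibitor libraries. Counting error alone gives its ratio of pooled reads per depth, 4.99, a 95% exact interval of 3.18 to 8.10.

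Ccl6 and Ccl9, rodent genes known as C10 and MIP-1 gamma, encode CC ligands with an extended amino end that bind Ccr1. Ccl9 had the most reads of the 8 ligands in the inhibitor libraries. It stood at 4629, 3335 and 3857 normalized counts in DMSO and at 10017, 11615 and 12623 with the inhibitor, and DMSO library 2 was its lowest, not its highest, DMSO value. The rise was 2.90-fold (3940.0 ± 651 to 11418 ± 1314, ± SD over 3 libraries; log2 change 1.54 ± 0.13 SE; limma's adjusted p = 3.01e-06). Ccl6 went from 62.8, 79.1 and 64.8 to 278, 373 and 468, a 5.42-fold rise (log2 fold change 2.40 ± 0.18 SE, limma's adjusted p = 1.90e-06). Among the inhibitor libraries Ccl6 was spread more widely than Ccl9, with a highest value 1.45-fold the geometric mean of the other 2. Per kilobase, Ccl9 was 24.8 to 43.5 times Ccl6 in DMSO and 15.9 to 21.3 times with the inhibitor (exact two-sided permutation p = 0.1, n = 3 per group; 0.200 adjusted over 4 ratios). Ccl6 overlaps the noncoding gene E230016K23Rik on the opposite strand, and the strand setting of the counting is not given in the sources used here. E230016K23Rik itself stood at 15.9 ± 1.57 and 13.0 ± 1.94 and did not pass (limma's adjusted p = 0.480). Ccl2 likewise overlaps the protein-coding gene Gm17268 on the opposite strand. No 50-base stretch of the annotated transcripts of Ccl2 or Ccl6, read on either strand, occurred in those of another gene.

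Cxcl10, or IP-10, encodes an interferon-induced attractant of activated T cells and NK cells that acts through Cxcr3. It stood at 13.9, 73.5 and 15.7 normalized counts in DMSO and at 37.8, 57.3 and 34.4 with the inhibitor. DMSO library 2 lay above every inhibitor library, and the other 2 DMSO libraries lay below all of them. Over all libraries the log2 fold change was 0.71 ± 0.50 (SE; 95% interval -0.39 to 1.801) and did not pass (limma's adjusted p = 0.269). Without DMSO library 2 it was 1.45 ± 0.30 (limma's adjusted p = 0.00117), and 8 ligands in place of 7 were then called higher. It was smaller, and not past the threshold, in other settings: 0.29 without DMSO library 1, 0.37 without DMSO library 3, 0.27 by edgeR and 0.32 by DESeq2. The group means, 34.3 ± 33.9 and 43.2 ± 12.4, differed 1.26-fold. With 1 added to each normalized count, Cxcl10 in DMSO library 2 was 4.73-fold the geometric mean of the other DMSO libraries. On this scale Ccl4 was 2.05-fold, Ccl7 1.73-fold (on 5 reads), Ccl3 1.68-fold, Ccl5 1.59-fold and Ccl6 1.24-fold. Ccl2 was 1.03-fold and Ccl9 0.789-fold. The added 1 understates the difference for scarce genes such as Ccl7. Ddit3, a stress-induced transcription factor gene, was 6.82-fold in DMSO library 2 on the same scale. Relb, an NF-kB subunit gene, was 3.73-fold, and Nfkbiz, an NF-kB cofactor gene, 2.91-fold. These comparison genes were chosen after their values had been seen, and their part in the spread of Cxcl10 was not tested.

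**Figure D2:**
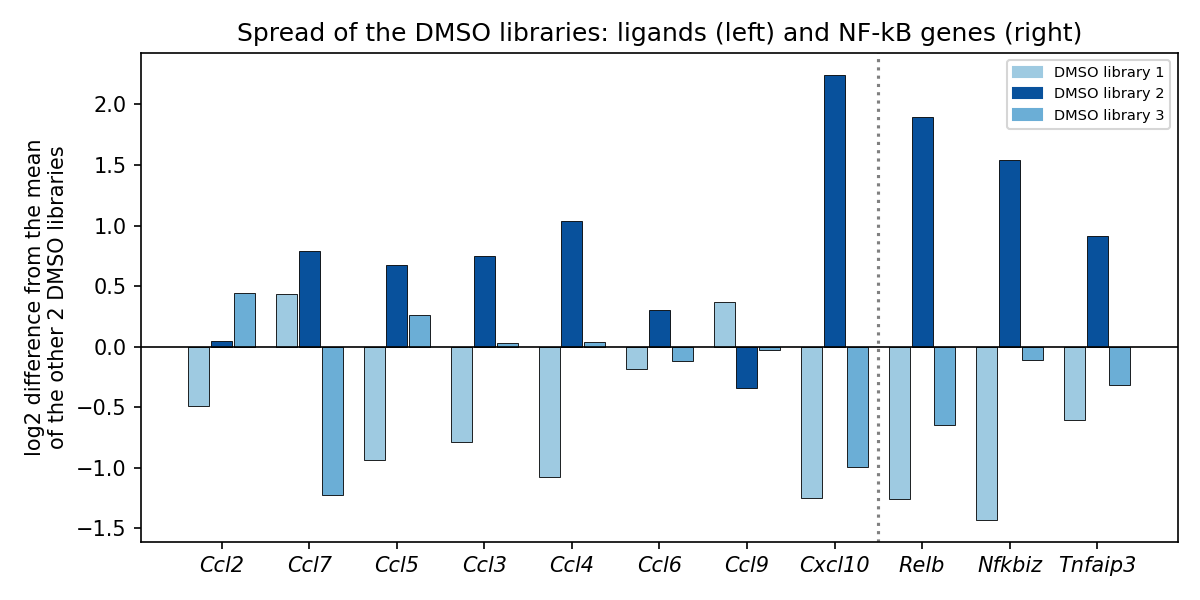
Bars give the difference of each DMSO library from the mean of the other 2, in log2 of the normalized count + 1 (vertical axis). Shown are the 8 ligands and, right of the dotted line, 3 NF-kB pathway genes chosen after their values had been seen. DMSO library 2 is the highest for Cxcl10 (2.24), Ccl4 (1.04), Ccl7 (0.79), Ccl3 (0.75), Ccl5 (0.67), Ccl6 (0.31) and the NF-kB genes, and the lowest for Ccl9 (-0.34).

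Levels of different ligands are compared per kilobase of exon. In DMSO the order was Ccl3 (4778 ± 1649 normalized counts per kilobase), Ccl4 (1671 ± 783), Ccl9 (1294 ± 214), Ccl6 (38.4 ± 4.96), Cxcl10 (15.3 ± 15.0), Ccl2 (14.8 ± 3.33), Ccl5 (7.51 ± 2.98) and Ccl7 (3.45 ± 1.98) (SD, n = 3). Ccl4 and Ccl9, Cxcl10 and Ccl2, and Ccl5 and Ccl7 overlapped in their ranges over the DMSO libraries; the other neighbours in this order did not. With the inhibitor the order was Ccl3 (7386 ± 503), Ccl9 (3749.8 ± 432), Ccl4 (3526 ± 274), Ccl2 (366 ± 38.1), Ccl6 (208 ± 53.0), Ccl7 (102 ± 31.0), Ccl5 (37.2 ± 5.07) and Cxcl10 (19.2 ± 5.49). Only Ccl9 and Ccl4 overlapped in this group. Ccl2 thus stood in place 6 of 8 in DMSO and in place 4 with the inhibitor, while Cxcl10 went from place 5 to the last. The order of these 2 genes in DMSO rests on DMSO library 2: without it Ccl2 (14.8 normalized counts per kilobase) was in place 5 and Cxcl10 (6.57) in place 6. Cxcl10 and the next gene, Ccl5 (6.21), then overlapped in their ranges. Ccl9 (1393) then also came before Ccl4 (1258), with overlapping ranges. Summed over the 8 ligands, reads took 0.0498% to 0.0656% of all reads in the DMSO libraries and 0.118% to 0.137% in the inhibitor libraries. Ccl3, Ccl4 and Ccl9 made up 94.9% to 98.8% of the summed normalized counts in every library.

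Most other chemokine ligands had no row. Of 32 listed, 3 were measured. Cx3cl1, the membrane-bound ligand of Cx3cr1, stood at 1.63, 2.42 and 0.982 in DMSO and 10.2, 2.80 and 11.8 with the inhibitor, with a p just under the threshold (0.0472, adjusted, limma). It rests on 2, 3 and 1 reads in DMSO and 10, 2 and 11 with the inhibitor, so it entered the table only through its inhibitor libraries. That call was lost without DMSO library 1 or 3, without inhibitor library 1 or 3, with a pseudocount of 5 and by DESeq2 (adjusted p between 0.0521 and 0.168). Ccl25, a ligand of Ccr9, had 53.7 ± 6.81 and 51.8 ± 17.9 (± SD over 3 libraries; limma's adjusted p = 0.760), and Cklf, a chemokine-like factor, 231 ± 21.5 and 222 ± 48.3 (0.714).

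Among 18 receptor genes, 10 were measured. With the inhibitor 4 were higher (40.0%, against 23.6% of all genes) and 2 were lower (20.0%, against 22.9%). The other 4 did not pass, and the median log2 fold change was 0.28. Ccr2 and Ccr1, which bind ligands described above, were among the higher genes. Ccr2, a receptor of Ccl2 and Ccl7, stood at 11480, 8151 and 9645 in DMSO and 15698, 16784 and 15232 with the inhibitor, and it rose 1.63-fold (limma's adjusted p = 6.54e-04). Ccr1 rose 1.35-fold, from 1687 ± 154 to 2282 ± 217 (± SD over 3 libraries; limma's adjusted p = 0.00307). For both genes the inhibitor libraries lay above all DMSO libraries. Cxcr3, the receptor of Cxcl10, was not analysed here.

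Receptors of other ligands moved in both directions. Cx3cr1, a receptor of monocytes and macrophages, stood at 1600.5, 1153 and 1323 in DMSO and 3401, 3155 and 2786 with the inhibitor, a 2.29-fold rise (limma's adjusted p = 1.21e-05). Ccr1l1, a scarce relative of Ccr1, went from 2.39 ± 1.33 to 8.69 ± 2.40 (± SD over 3 libraries; limma's adjusted p = 0.0281), and its call was lost without DMSO library 1 or 2, without inhibitor library 1 or 2 and by DESeq2. Ccr1l1 had 2, 2 and 4 reads in DMSO and 11, 6 and 6 with the inhibitor, and so also entered the table only through the inhibitor group. Cxcr4, the receptor of Cxcl12 that retains blood progenitors in the marrow, fell instead. It stood at 3036, 2267 and 2604 in DMSO and at 1237, 1284 and 1312 with the inhibitor, and the groups did not overlap (2.06-fold lower; log2 fold change -1.03 ± 0.10 SE, limma's adjusted p = 1.28e-05). Ccr6, a receptor of Ccl20, fell from 19.4 ± 3.14 to 8.84 ± 2.92 (limma's adjusted p = 0.0254), a call lost without DMSO library 3, without inhibitor library 2 and by DESeq2. Ccr7, Ccr10, Cxcr2 and Xcr1 did not pass. Ccrl2, an atypical receptor that binds chemerin, had 29.8 ± 14.9 and 43.0 ± 14.2 (limma's adjusted p = 0.197). It passed without DMSO library 2 (0.0213).

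**Figure D3:**
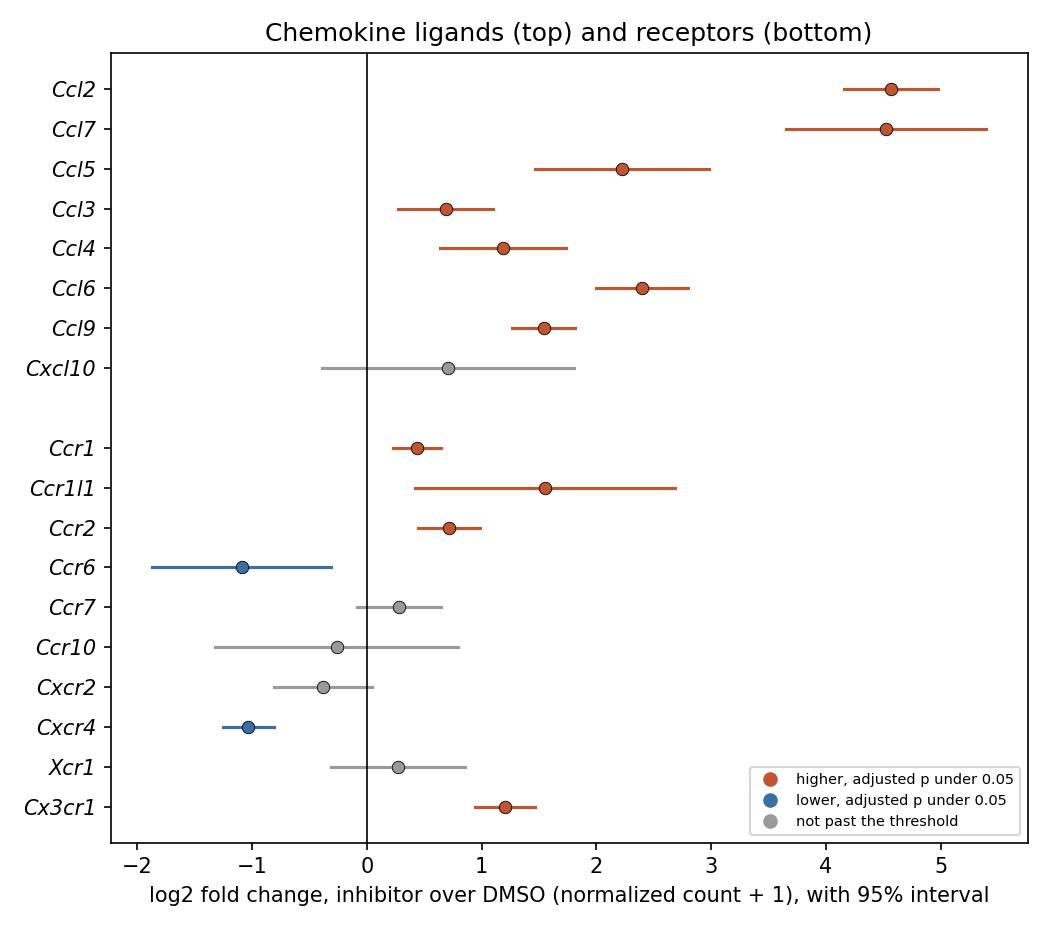
Log2 fold change of inhibitor over DMSO (points, horizontal axis, on the normalized count + 1 scale) with its 95% interval from limma (lines) for the 8 ligands and 10 receptors. Ccl2 and Ccl7 lie furthest right, at 4.56 and 4.52; among receptors Ccr1, Ccr1l1, Ccr2 and Cx3cr1 lie above 0 and Cxcr4 and Ccr6 below.

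Of 28 genes that carry the signal of these receptors, 27 were measured, 7 were higher (25.9%), 5 lower (18.5%) and 15 did not pass, with a median log2 fold change of 0.01. These shares were near those of all genes, 23.6% and 22.9%. The number higher was 4 without DMSO library 3 or without inhibitor library 2, and 9 without DMSO library 2. Pik3r5, the regulatory subunit that couples the gamma phosphoinositide 3-kinase to G proteins, rose from 311 ± 20.5 to 920.1 ± 36.7 (± SD over 3 libraries; limma's adjusted p = 2.35e-07), and Rgs18, a brake on G protein signalling in blood cells, rose from 793 ± 40.0 to 1275 ± 154 (2.21e-04). Arrb1, an arrestin that uncouples active receptors, fell from 945 ± 76.4 to 595 ± 41.4 (1.65e-04), and Grk6, a kinase that prepares receptors for arrestins, fell from 3922 ± 41.1 to 2715 ± 232 (3.41e-04).

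Of 12 enzymes that cut chemokines or release them from the membrane, 9 were measured, 5 were higher (55.6%, against 23.6% of all genes), 2 lower (22.2%, against 22.9%) and 2 did not pass. The number lower was 1 in each fit that left out 1 library, except that without DMSO library 2. Mmp12, the macrophage elastase, rose from 51.5 ± 7.69 to 875 ± 143 (± SD over 3 libraries; limma's adjusted p = 1.24e-08), and Adam17, the sheddase that also releases TNF, from 2305 ± 198 to 3794 ± 296 (8.08e-05). Mmp9, a gelatinase, rose to 209 ± 29.3 from 6.77 ± 3.23 (2.30e-07). Prtn3, the granule protease proteinase 3, fell from 1496 ± 464 to 403 ± 7.05 (9.97e-06).

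NF-kB pathway genes, known to act upstream of many chemokine genes, numbered 24 measured of 25 listed. Of these, 10 were higher (41.7%, against 23.6% of all genes) and 3 lower (12.5%, against 22.9%). The other 11 did not pass, and the median log2 fold change was 0.34. When single libraries were dropped in turn, the number higher ranged from 8 to 14. The 14 came from dropping DMSO library 2. The low value of 8 came from dropping DMSO library 1, DMSO library 3 or inhibitor library 3. Tlr2, a receptor for bacterial lipoproteins, rose from 732 ± 172 to 1529 ± 58.8 (± SD over 3 libraries; limma's adjusted p = 5.78e-05), Tnfaip3, the feedback inhibitor A20, from 293 ± 116 to 726 ± 40.4 (2.17e-04), and the kinase gene Map3k7 from 1907 ± 76.5 to 2731 ± 195 (3.81e-04). Irak1, a kinase of Toll-like receptor signalling, fell from 2484 ± 110.1 to 1306 ± 105 (6.63e-06). Relb (119, 514 and 158 in DMSO; 432, 380.3 and 397 with the inhibitor) did not pass over all libraries (limma's adjusted p = 0.0733) and passed without DMSO library 2 (6.92e-07), as did Nfkbiz (0.0730 and 1.66e-04).

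Interferon pathway genes, which act upstream of Cxcl10, had 14 measured members of 15 listed. Of these, 3 were higher (21.4%, against 23.6% of all genes) and 6 lower (42.9%, against 22.9%). The other 5 did not pass, and the median log2 fold change was -0.11. Irf8, a transcription factor of monocytes and dendritic cells, fell from 5469 ± 210.1 to 3032 ± 165 (± SD over 3 libraries; limma's adjusted p = 9.18e-06), and the kinase genes Tyk2 (1276 ± 25.8 to 877 ± 53.5; 2.45e-04) and Jak2 (1332 ± 104 to 939.8 ± 30.5; 5.55e-04) fell as well. Ifngr2, a subunit of the interferon gamma receptor, rose from 721 ± 70.2 to 1094 ± 36.1 (2.51e-04). AU-rich elements occur in many chemokine transcripts. Of 13 genes for proteins that bind or degrade mRNAs with such elements, none was higher (1 without inhibitor library 3), against 23.6% of all genes. Of these 13, 3 were lower (23.1%, near the 22.9% of all genes) and 10 did not pass. Auh (409.9 ± 9.62 to 261 ± 11.6), Khsrp (2893 ± 87.8 to 2309 ± 209) and Tia1 (1358 ± 86.0 to 1039 ± 175) fell; the calls on Khsrp and Tia1 were lost without inhibitor library 2 and DMSO library 3, respectively. Zfp36, the decay factor tristetraprolin, had 518 ± 55.1 and 457 ± 14.1 (limma's adjusted p = 0.173).

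The ligand genes were also set beside their neighbours on the chromosome, within 150 kb of either end of a cluster, a window chosen after the data had been seen. Around the cluster of 139 kb from Ccl5 to Ccl4, 5 ligands and 8 other genes were measured. All 5 ligands rose, whereas of the other 8 none rose, 2 fell and 6 did not pass. Over all genes 23.6% were called higher and 22.9% lower. Taf15, an RNA-binding protein gene that lies 52.7 kb before Ccl5 by the left ends, fell from 613 ± 87.9 to 262 ± 53.1 (± SD over 3 libraries; limma's adjusted p = 5.20e-05), and 1700020L24Rik fell from 84.7 ± 4.12 to 60.1 ± 8.73 (0.0345). Wfdc17, the nearest measured gene beyond Ccl4, had 1505 ± 339 and 1287 ± 393 (limma's adjusted p = 0.334). No other measured gene lay within the window around Ccl2 and Ccl7, and around Cxcl10 1 of 5 rose, 1 fell and 3 did not pass. A wider list of 52 neighbours was not bounded by a distance and also held genes beside Cxcl16, which was not analysed here. Of these, Arrb2, Med11, Mink1 and Pld2 were called higher and Pelp1 was not called. In the whole list of 52, 30 were measured, 8 were higher (26.7%), 6 lower (20.0%) and 16 did not pass. These shares were near those of all genes, and the median log2 fold change of the list was -0.03. Slfn2, a Schlafen gene between both clusters on chromosome 11, rose from 206 ± 88.0 to 885 ± 87.7 (limma's adjusted p = 1.35e-05), while the DNA ligase gene Lig3 fell from 1396 ± 87.9 to 879 ± 68.5 (1.06e-04) and Sdad1 from 2230.4 ± 46.4 to 1546 ± 179 (5.91e-04).

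**Figure D4:**
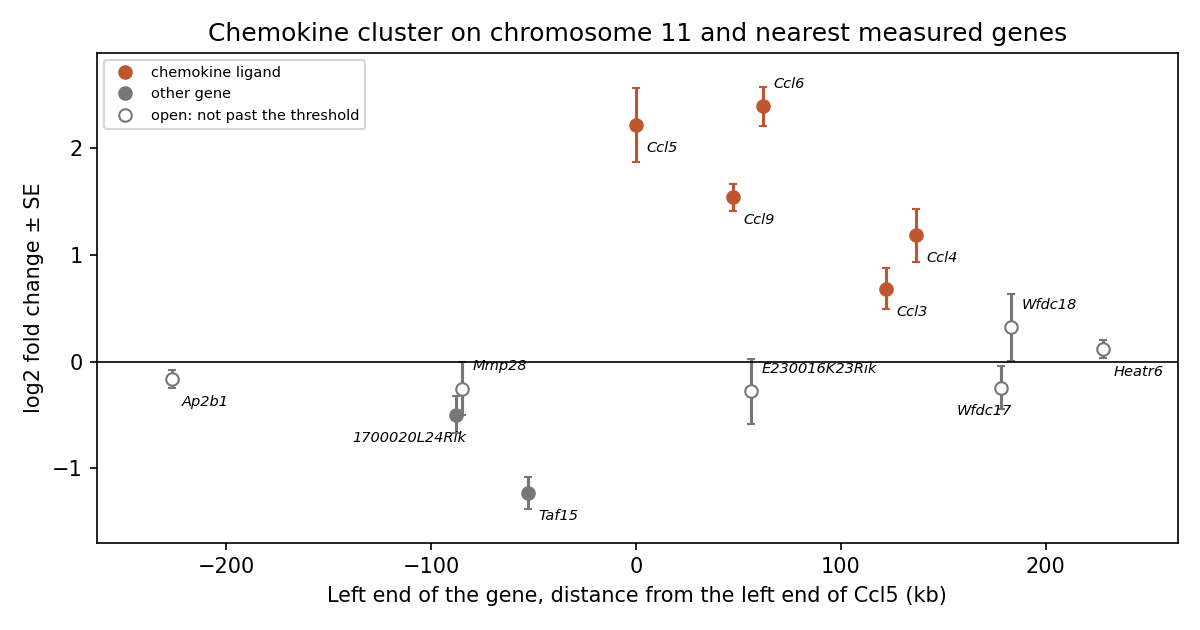
Log2 fold change ± SE (vertical axis) of the genes measured within 150 kb of the cluster from Ccl5 to Ccl4, against the distance of each gene's left end from that of Ccl5 in kb (horizontal axis); ligands are orange, other genes grey, open points did not pass the test. The 5 ligands lie between 0.69 and 2.40, and Taf15 lies lowest, at -1.23.

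Genes with the most similar profile to a ligand over the 6 libraries were found by the distance between log2 profiles centred on each gene's mean; this describes the libraries and was not tested. Nearest to Ccl2 was the scavenger receptor gene Stab1 (distance 0.363; 46.1 ± 9.85 in DMSO and 1148 ± 273 with the inhibitor, ± SD over 3 libraries). Next came Rnf183 (0.605) and Pdpn (0.666), which were listed at 0 in all DMSO libraries and had 22.9 ± 2.92 and 17.1 ± 1.02 with the inhibitor. Both entered the table only through the inhibitor group, and the size of their log2 rise, and so their distance, depends on the added count of 1. Nearest to Ccl6 was Trem2 (0.327, at 64.7 ± 8.81 and 384 ± 55.6), a lipid-sensing receptor of macrophages and microglia. Nearest to Ccl9 was Smim4 (0.0847), to Ccl3 Dgkh (0.177), to Ccl4 Stx3 (0.240), to Ccl5 Rhod (0.262) and to Ccl7 Eda2r (0.749). Eda2r, at 2.76 ± 1.60 in DMSO and 70.1 ± 4.42 with the inhibitor, also entered the table only through the inhibitor group.

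Most measured markers of macrophages were higher with the inhibitor. Of 8 listed, 6 were measured, 5 were higher (83.3%, against 23.6% of all genes) and 1, Mrc1, was lower (16.7%, against 22.9%). The summed level of the 6 was 2398 to 2499.8 normalized counts in the DMSO libraries and 5487 to 5977 in the inhibitor libraries. Csf1r was the largest part of this sum in both groups. Csf1r, the receptor of the macrophage growth factor, rose from 1235 ± 33.6 to 3912 ± 165 (± SD over 3 libraries; limma's adjusted p = 3.90e-08), Adgre1, the F4/80 antigen, from 224 ± 21.1 to 638 ± 43.1 (1.07e-06), C1qb, a complement subunit gene, from 5.54 ± 2.01 to 18.6 ± 2.59 (0.00490) and Cd68, a lysosomal glycoprotein gene, from 942 ± 37.2 to 1174 ± 70.0 (0.00809). C1qb reached at most 8 reads in a DMSO library and entered the table only through the inhibitor group. C1qa and Marco had no row. The part of these changes in those of the ligands was not tested. Of the labelled cells' 10 myeloid markers 5 were higher, among them Itgam (1667 ± 203 to 6314 ± 44.0), Hoxa9 and Cd33, and 2, Cebpa and Mpo, were lower.

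Most other cell types had few measured markers. Of 7 T cell markers 1 was measured (Lck, summed level 8.15 to 17.8 in DMSO and 18.2 to 19.4 with the inhibitor), of 6 B cell markers 1 (Cd79b, 24.5 to 28.5 and 12.3 to 22.6) and of 6 NK cell markers 2 (28.5 to 42.8 and 51.1 to 62.4), and none of these was called. Of 6 mast cell and basophil markers 1 was measured and was lower (Mcpt8, 21.8 to 28.5 and 6.99 to 13.99), and of 6 megakaryocyte markers 2, of which Itga2b was higher (summed level 9.78 to 17.7 and 32.7 to 54.5). None of 7 erythroid markers was measured. Of 8 stromal, endothelial and epithelial markers 4 were, with Epcam higher (3.41 ± 1.26 to 11.9 ± 3.81, at most 6 reads in a DMSO library) and a summed level of 3015 to 3646 and 3588 to 4012 that came almost wholly from Pecam1, which myeloid cells also express. All 6 dendritic cell markers were measured. Zbtb46 and Itgax were higher (33.3%, against 23.6% of all genes). Flt3 (8059.7 ± 763 to 3693 ± 28.5) and Siglech were lower (33.3%, against 22.9%). The summed level was 9065 to 10480.1 and 5742 to 6091, and Flt3 was its largest part in both groups. The part of these markers in the ligand changes was not tested.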

How the data were processed

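Poly-A RNA of 6 libraries, 3 per group by sample title, was sequenced from TruSeq stranded mRNA libraries, per the labels' protocols. Tools listed in the submitters' processing notes, without their roles, are TopHat2 2.0.10, HTSeq 0.6.0, CASAVA 1.8.2 and DESeq 1.16.0, and the build is mm10; neither the annotation nor the strand setting is given in the sources used here. The authors deposited a normalized signal: 100% of values in each library were whole multiples of 1 step (tolerance 1e-06), so they are reads divided by a size factor, and whole reads were recovered.

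The main test was limma-trend in limma 3.58.1 under R 4.3.3, run over 11644 genes on log2 of the normalized count plus 1, two-sided, with Benjamini-Hochberg adjustment over all genes, a threshold of 0.05 and no filter or replicate block. This scale understates changes of low genes. The members and lists were chosen with earlier results of these data known. Named were each measured member, up to 4 genes per list with the smallest adjusted p (or, with none called, the highest mean), and the nearest profiles; others were chosen after their values were seen. Of the listed genes 2 are not reported here and were left out of the counts. Counts of lists carry no set test. Alternatives were edgeR 4.0.16 and DESeq2 1.42.0 on recovered reads, upper-quartile and TMM scaling, pseudocounts of 0.5 and 5, at least 5 CPM in 3 libraries, a replicate block, and each library left out. The limma, edgeR and DESeq2 steps were tested on simulated data. No 50-base stretch of the annotated transcripts of Ccl2 to Ccl7 occurred in another gene's; 1.97% of those of Ccl9 (in many other genes' transcripts) and 3.59% of those of Cxcl10 (with Art3) did, so reads could be shared there. The read length is not given in the sources used here. Exon length is the union of GENCODE M21 exons.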

Additional observations from a re-analysis of the deposited data

How the results depend on the processing

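Genes called in all numbered 5418, and 4145 to 5346 with a library left out. Of the 8 ligands, 7 were higher in the fit over all libraries and 6 to 8 with a library left out (6 without inhibitor library 2, 8 without DMSO library 2), 6 by DESeq2, 7 by edgeR, and 5 with at least 5 CPM in 3 libraries, a filter that removed Ccl5, Ccl7 and Cxcl10; none was lower in any setting. For single ligands, 46 of 48 values with a library left out and 60 of 61 other values kept direction and side of the threshold; the exceptions, on Ccl3 and Cxcl10, are given above, and the causes of those on Ccl3 were not tested. Of the receptors, 2 were lower, against 1 by DESeq2, 1 with the CPM filter, which removed Ccr6, and 1 to 3 with a library left out; 4 were higher, and 3 to 4 under the alternatives. Directions reversed without passing the test for Ccl25 (log2 -0.31 to 0.21 with a library left out) and Cklf (-0.21 to 0.11) without inhibitor library 1 and for Ccr10 (-0.47 to 0.031) without DMSO library 3; the cause was not tested. The labels tie same-numbered libraries by number only. Their deviations from the group means correlated by 0.165, 0.0499 and 0.205 over all genes. Over 9100 genes with higher mean counts these values were 0.247, 0.0735 and 0.263. Every pair with different numbers correlated negatively there, by -0.235 to -0.0157. Deviations cancel within a group, so these values are not independent. Whether same-numbered libraries share a batch was not tested. With the replicate block 7 ligands were called higher, 0 lower, and 5932 genes in all, and Cxcl10 did not pass (adjusted p = 0.0753); Relb (0.0184) and Nfkbiz (0.0106) then passed, and 13 NF-kB pathway genes were higher in place of 10. The order of ligand levels without DMSO library 2 was added after seeing the data. Low read numbers limit Ccl7, Ccl5 and Cxcl10.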
